A study of Mus musculus with 5 samples.

Results

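Runx3 occupancy was mapped in CD8+ T cells (CD8-TC), and the regions described here are those centred in protein-coding sequence. Of 9135 Runx3-bound regions, 97 (1.06%) had their centre in a coding exon (a CDS row of a protein-coding gene) and lay 1 kb or more from every annotated transcription start site (TSS). They fell in 94 genes. The choice used only position, and the distance limit left out 147 further regions with a coding centre that were under 1 kb from a TSS. For comparison, 3261 regions were centred in introns of protein-coding genes and 3089 outside all annotated genes, by the same distance limit. Another 2404 regions were under 1 kb from a TSS, and 284 lay elsewhere in annotated genes, in non-coding exons or in genes without a coding product.

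The source was the spleen of wild-type mice of the ICR stock, with CD8+ cells selected by antibody-coated magnetic beads. The cells were activated for 2 days through the T cell receptor, on plates coated with anti-CD3e and with soluble anti-CD28, and then kept for 4 days with IL-2 at 100 units per ml. Chromatin immunoprecipitation and sequencing (ChIP-seq) was done with an in-house polyclonal anti-Runx3 antibody (2 libraries), with non-immune rabbit serum (NIS, 2 libraries) as control and with a monoclonal antibody to H3K4me1 (1 library in the labels). All libraries came from cells cultured in this same way, so there was no comparison of conditions. The peaks were called once on joined repeats, so the p-values below hold for the regions as called and carry no error between repeats or animals.

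Runx3 is a Runt domain transcription factor that drives the cytotoxic program of CD8-TC. It binds DNA with its partner Cbfb at a short motif, TGTGGT, of which 3 variants also count as RUNX motifs here. TGCGGT is the variant with a CpG inside, while TGTGGC is the variant that ends in C, and the form TGCGGC has both changes. H3K4me1 is a histone mark found at enhancers, including those inside genes. A motif inside a coding exon is also part of the codons, so that its bases serve both the protein and any factor that binds there.

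Sequences around the RUNX motif nearest the region centre are shown for the members in genes of T cell lists with a coding motif, since there the motif can be read within the codons. Each is 60 bases of coding sequence on the strand of the gene, from the NCBIM37 (mm9) assembly, with the motif in capitals. ACCACA and ACCGCA are TGTGGT and TGCGGT read from the other strand.

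Tgfbr3, chr5:107606889-107606948, minus strand: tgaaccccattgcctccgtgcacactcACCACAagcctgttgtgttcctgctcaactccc
Nfkb2, chr19:46383689-46383748, plus strand: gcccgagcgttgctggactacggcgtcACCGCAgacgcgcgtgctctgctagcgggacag
Junb, chr8:87501580-87501639, minus strand: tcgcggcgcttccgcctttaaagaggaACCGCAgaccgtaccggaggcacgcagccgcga

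In each of these the motif lay on the strand opposite to the gene. The motif lay 10 bp from the region centre in Tgfbr3, which encodes the TGF-beta co-receptor betaglycan. The distance was 34 bp in Nfkb2, the gene of an NF-kappaB subunit, and 96 bp in Junb, the gene of a subunit of AP-1. A further set, chosen after the values were seen, shows a motif that starts at codon position 1 on the gene's own strand, in genes of zinc finger transcription factors.

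Sp6, chr11:96883530-96883589, plus strand: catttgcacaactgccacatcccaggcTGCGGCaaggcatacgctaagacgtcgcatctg
Zfp697, chr3:98231669-98231728, plus strand: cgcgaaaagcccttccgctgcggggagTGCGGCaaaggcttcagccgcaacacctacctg
Zfp51, chr17:21600707-21600766, plus strand: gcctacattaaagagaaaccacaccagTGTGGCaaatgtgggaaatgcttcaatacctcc

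The motif lay 2 bp from the centre in Sp6, 5 bp in Zfp697 and 18 bp in Zfp51. In all 3 it is followed directly by aaa or aag. In total 6 members lay in genes named Zfp, Zscan or Sp, and the others were in Zscan10, Zfp57 and Zfp703. In those others the motif nearest the centre lay on the strand opposite to the gene. Of the 66 members whose nearest motif was coding, 8 (12.1%) had it on the gene's strand from codon position 1. Among all coding motifs this share was 13.4%. The share of genes with such names among all genes was not counted, so no more is read from the 6. Another set, also chosen after the values were seen, shows motifs within 5 bp of the centre in other kinds of genes.

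Pmel, chr10:128153483-128153542, plus strand: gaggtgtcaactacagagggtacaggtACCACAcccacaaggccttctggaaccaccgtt
Tecr, chr8:86097140-86097199, minus strand: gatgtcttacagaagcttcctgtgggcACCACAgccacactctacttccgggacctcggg
Hunk, chr16:90476142-90476201, plus strand: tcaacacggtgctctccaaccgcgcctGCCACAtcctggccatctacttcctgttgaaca

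Pmel encodes a matrix protein of the melanosome, Tecr an enzyme of fatty acid elongation and Hunk a protein kinase. In these the motif lay on the strand opposite to the gene, while in C230081A13Rik (1 bp from the centre) and A830007P12Rik (5 bp), which are not shown, it lay on the strand of the gene.

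The coding-exon regions were about as dense in their sequence as intronic regions were in theirs. The rate over the whole genome was also similar (3.57 regions per Mb), but it includes the dense sequence under 1 kb from a TSS. Coding sequence 1 kb or more from a TSS made up 1.03% of the genome and held 1.06% of the regions, or 3.69 regions per Mb. Intronic sequence held 3.78 regions per Mb, intergenic sequence 2.10 and sequence under 1 kb from a TSS 22.7. None of the 97 was on chromosome X, which held 93 Runx3-bound regions, and a count of 0 there allows a share of up to 3.23%.

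The label describes the centre of each region more than its whole extent. The median region was 50.1% coding, 49 were over 50% coding and 15 lay entirely inside 1 coding exon. In 0 regions did both ends fall within 50 bp of the ends of the exon. The median exon that held a centre was 192 bp long, against 182 bp for the exon that holds a typical coding base. Exons of 1000 bp or more held 20 of the 97 (20.6%) and 15.9% of coding bases. By order in the gene, 60 centres were in internal coding exons (61.9%, against 73.6% of coding bases), 25 in last (25.8% against 17.7%), 7 in first (7.22% against 4.01%) and 5 in the single coding exon of a gene (5.15% against 4.75%).

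The regions were 225 to 1583 bp wide with a median of 486 bp, while the medians were 516 bp in introns and 518 bp between genes. Their nearest TSS was at a median of 7943 bp. The GC content of the central 200 bp had a median of 55%, against 48.5% in intronic regions and 50% in 200 bp windows laid over all coding sequence. CpG dinucleotides in the same window had a median of 5 in the members, 2 in intronic regions and 4 in coding windows. In 17 of the 97 members (17.5%) the central 200 bp held 10 CpG or more, compared with 1.13% of intronic regions, 4.01% of intergenic regions and 7.43% of coding windows.

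Reads can be placed only where sequence is unique. In 93 of the 97 members at least 95% of 32-base words occurred once in the genome. This held for 2873 of 3261 intronic and 2605 of 3089 intergenic regions. In 3 members less than 50% of the words occurred once. These 3 were Gbp8 (38.8%), which codes for an interferon-induced guanylate-binding protein, Adam1b (43.8%), which codes for a sperm surface protease, and Arf1 (45.5%), which codes for a small GTPase of the Golgi. In these the sequence to which a read can be placed uniquely is limited.

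The coding-exon regions overlapped H3K4me1 less often than other Runx3-bound regions far from a TSS. Of 97 members, 54 overlapped a marked region by at least 1 bp (55.7%, Wilson 95% interval 45.8 to 65.2), while 57.3% of all 9135 Runx3-bound regions did, those near a TSS included. The share was 73.3% (71.7 to 74.8) of intronic regions, which is 17.6 percentage points more (Newcombe 95% interval of coding minus intronic -27.6 to -8.01, two-sided Fisher's exact test p = 0.00028, adjusted p = 0.0021 over 15 tests). It was 68.1% (66.4 to 69.7) of intergenic regions, a difference of -12.4 points (-22.5 to -2.82, exact p = 0.011, adjusted p = 0.042). These intervals cover counting error only. Among regions with under 10 CpG in the central 200 bp, the share was 65% of 80 members, 73.8% of 3224 intronic and 70.1% of 2965 intergenic regions, and neither difference passed (-8.82 points, exact adjusted p = 0.19, and -5.08 points, adjusted p = 0.41). Among regions of 500 bp or more it was 72.1% of 43 members and 80.6% of 1774 intronic regions, and the difference of -8.52 points did not pass either (exact adjusted p = 0.24).

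The same order was seen within distance classes up to 50 kb. At 1 to 5 kb from a TSS, 16 of 36 members were marked (44.4%), against 67.2% of intronic regions (exact p = 0.0065, adjusted p = 0.033 over 6 tests) and 63.1% of intergenic regions (adjusted p = 0.065). At 5 to 50 kb, 35 of 57 members were marked (61.4%), against 76.7% of intronic regions (exact adjusted p = 0.033) and 69.0% of intergenic regions (adjusted p = 0.37). Only 4 members lay farther away, of which 3 were marked. Over all regions 5 kb or more from a TSS, 62.3% of 61 members and 75.7% of 2340 intronic regions were marked, and the difference of -13.4 points did not pass over the family of 15 (exact adjusted p = 0.069). The difference from intergenic regions also did not pass there (-6.82 points), nor when the centre (-9.35 points) or 50% of the region (-8.50 points) had to be marked.

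**Figure D1:**
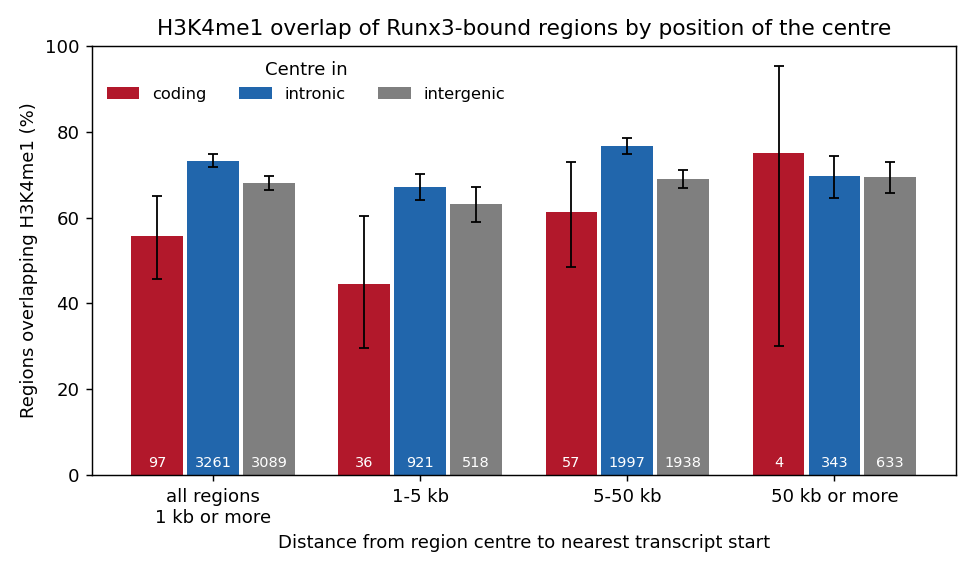
Share of Runx3-bound regions that overlapped H3K4me1 by at least 1 bp (vertical axis, percent), by place of the region centre and distance to the nearest TSS (horizontal axis). Bars are shares, lines are Wilson 95% intervals and the number in each bar is the number of regions, and the coding bar stands below the other two in all but the class of 50 kb or more, which has 4 members.

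The members also had less H3K4me1 cover to either side, as a description without a test. At the centre, 46.4% of coding-exon regions were within marked sequence, compared with 60.7% of intronic and 55.7% of intergenic regions. At 5 kb on either side the share was 6.19% for coding-exon regions, while it was 15.6% and 16.1% for intronic and 12.5% and 12.8% for intergenic regions. The marked regions that members overlapped had a median width of 1872 bp, against 2060 bp for those on intronic and 1906 bp for those on intergenic regions. The dip at the centre was present in all 3 classes, with 51.5% and 49.5% of members covered at 500 bp to either side.

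**Figure D2:**
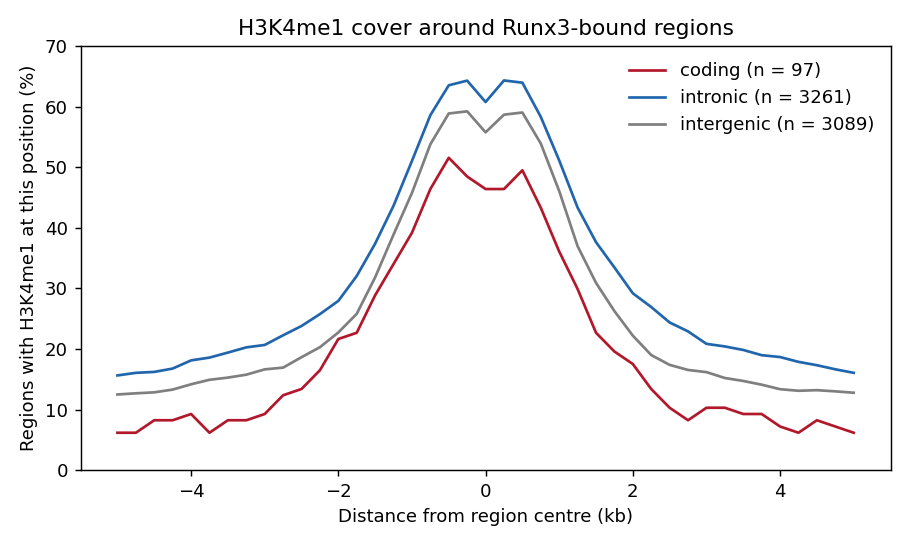
Share of regions (vertical axis, percent) with H3K4me1-marked sequence at each distance from the centre (horizontal axis, kb), for coding-exon, intronic and intergenic Runx3-bound regions. The coding-exon line lies lowest throughout, and all 3 lines have a shallow dip at the centre.

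Among the members themselves, the mark varied with the exon, the base composition and the width. In last or single coding exons 11 of 30 members were marked (36.7%), while in first and internal coding exons 43 of 67 were (64.2%). The difference was -27.5 points (-45.6 to -6.05, two-sided Fisher's exact test p = 0.015, adjusted p = 0.046). When the centre itself had to be marked, the shares were 36.7% and 50.7% and did not differ past the threshold (exact adjusted p = 0.37). Most of the marked members were internal, with 41 of 60 (68.3%), while 2 of 7 in first exons were marked. Members in last or single exons also had more CpG (median 8 against 4) and a higher GC content (59.3% against 53.5%). Their exons were longer (median 640 bp against 152 bp). They lay nearer to a TSS (median 3907 bp against 8948 bp) and were narrower (median 460.5 bp against 502 bp). The part of these traits in the difference was not tested beyond the following split. With the 17 members of 10 CpG or more left out, 9 of 19 (47.4%) against 43 of 61 (70.5%) were marked, and the difference of -23.1 points did not pass (exact adjusted p = 0.19).

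CpG-rich members were rarely marked. Only 2 of the 17 members with 10 CpG or more overlapped H3K4me1 (11.8%), in the last exons of Zscan10 and Cdhr5. The same was seen in CpG-rich intronic regions, of which 10 of 37 were marked (27.03%), and in intergenic regions, with 26 of 124 (21.0%). The 15 unmarked members were in Wnt10a, Akap12, Btbd11, Sp6, Prr7, Nfkb2, Zfp697, Prdm2, Psmc2, Rinl, Clec11a, Zfp703, B3gnt3, Junb and Keap1, which were named after their values were seen. By GC content, 22 of 34 members of up to 51% were marked (64.7%), 23 of 33 of up to 58% (69.7%) and 9 of 30 above this (30%), against 72.0%, 77.6% and 66.3% of intronic and 69.3%, 68.2% and 53.1% of intergenic regions in these ranges. In the middle range the members' share was not below that of intergenic regions. By width, 15 of 33 members of up to 446 bp were marked (45.5%), 16 of 32 of up to 523 bp (50%) and 23 of 32 wider ones (71.9%). The mark was also more frequent on wider regions of the other classes, with 60.9%, 73.7% and 81.2% of intronic and 54.8%, 67.1% and 77.2% of intergenic regions in these ranges. The members with 0 overlap had a median width of 457 bp and those with the mark of 510 bp.

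**Figure D3:**
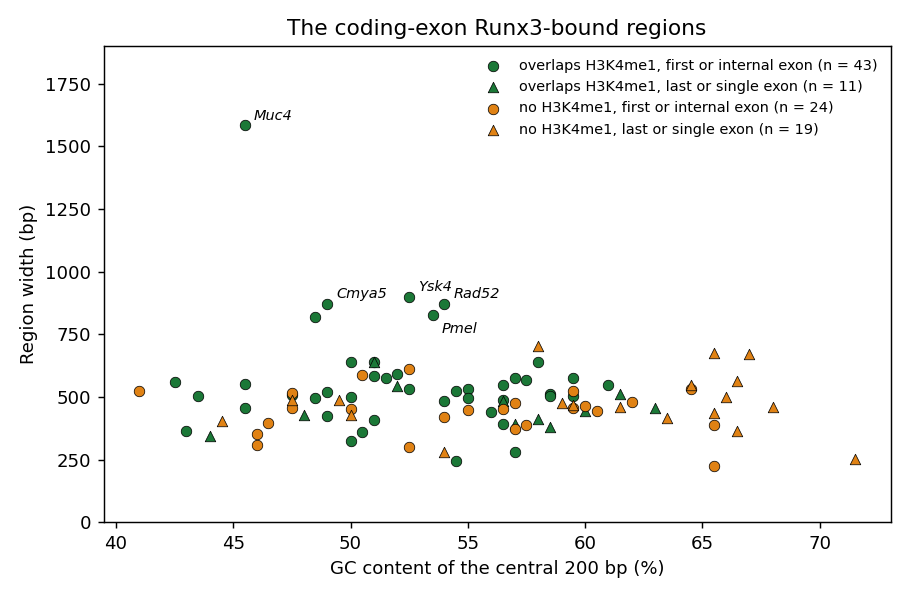
Each of the 97 coding-exon regions by GC content of its central 200 bp (horizontal axis, percent) and width (vertical axis, bp), coloured by H3K4me1 overlap, with triangles for last or single coding exons. All points above 63% GC are unmarked (orange), and the 5 widest regions, which are named, are all marked.

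The share of regions with a RUNX motif did not differ past the threshold between coding-exon regions and the other classes. The central 200 bp held at least 1 RUNX motif in 82 of 97 members (84.5%, 76.0 to 90.4), while 78.8% of all Runx3-bound regions did. The share was 82.0% in intronic regions (difference 2.54 points, -6.05 to 8.55, exact adjusted p = 0.63) and 79.9% in intergenic regions (4.67 points, -3.93 to 10.7, adjusted p = 0.38), so that differences of several points in either direction are within the intervals. Among regions of 500 bp or more the differences were larger, with 93.0% of 43 members against 80.8% of intronic regions (12.2 points, exact p = 0.047, adjusted p = 0.10) and 78.5% of intergenic regions (14.5 points, exact p = 0.022, adjusted p = 0.054), and did not pass after adjustment. Windows of 200 bp over all coding sequence held a RUNX motif in 33.9%, and windows over introns in 25.8%. In the whole region the number ranged from 0 to 11, with 44 members holding 3 or more. The 6 members with 0 were those in Capn7, Shd, Gm17266, Wdr31, Nmnat1 and Wdr95. These numbers were near those of the other classes. At least 1 motif was in the whole region of 93.8% of members, 93.4% of intronic and 92.8% of intergenic regions. The median number was 2 in each class.

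The make-up of the motifs differed in the variants with CpG. TGCGGC was in the central 200 bp of 14.4% of members and 3.83% of intronic regions (difference 10.6 points, 4.92 to 19.0, two-sided Fisher's exact test adjusted p = 0.00049). TGCGGT was in 18.6% and 9.48% (9.08 points, 2.51 to 18.01, exact adjusted p = 0.039), a call that was lost in the central 100 bp (4.79 points, adjusted p = 0.17). Windows over coding sequence held TGCGGC in 5.01% and intronic windows in 1.05%, so that members exceeded their windows 2.88 times and intronic regions theirs 3.66 times. For TGCGGT the same ratios were 5.02 and 7.91. The higher shares of these variants thus stood beside higher shares in coding sequence itself. TGTGGT was in 55.7% of members and 64.4% of intronic regions (-8.73 points, -18.8 to 0.90, exact adjusted p = 0.18), and TGTGGC in 37.1% and 30.02% (7.09 points, -2.00 to 17.1, adjusted p = 0.22).

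Motifs of other factors did not differ past the threshold. An ETS core (GGAA with A or C before it and A or G after it) was in 74.2% of members and 65.7% of intronic regions (8.48 points, -1.16 to 16.3, exact adjusted p = 0.19), and in 46.8% of coding windows. An AP-1 motif (TGACTCA on either strand) was in 3 members (3.09%) and in 7.39% of intronic regions (-4.30 points, -6.54 to 1.38, exact adjusted p = 0.22), while 2.67% of coding windows held it. A pair of RUNX motifs within 50 bp was in 34.02% of members and 30.1% of intronic regions (3.91 points, -4.90 to 13.9, exact adjusted p = 0.50). An ETS motif within 50 bp of a RUNX motif was in 41.2% and 40.5% (0.76 points, -8.67 to 10.8, exact adjusted p = 0.92). All motifs were searched on both strands.

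The RUNX motifs were densest near the centre. Since the members were chosen by a coding centre, and the median central 200 bp was 77% coding, most motifs near it are coding by the choice of members. Of the 82 motifs nearest the centre, 66 were wholly coding, 15 non-coding and 1 spanned the end of an exon. The nearest motif was within 25 bp of the centre in 35 of 97 members and within 50 bp in 56. Coding bases of the members held 9.42 motifs per kb within 25 bp of the centre, 10.4 from 25 to 50 bp, 8.23 from 50 to 100 bp and 4.11 from 100 to 200 bp, while all coding sequence 1 kb or more from a TSS held 2.32. Non-coding bases of the same regions held 0 motifs within 25 bp of the centre, where they numbered only 295. They held 6.94 per kb from 25 to 50 bp, 6.35 from 50 to 100 bp and 2.76 from 100 to 200 bp. From 200 to 500 bp, a range that runs past the ends of most regions, non-coding bases held 1.55 per kb. Coding bases held 4.32 per kb there, so the sequence around the members was also above the 2.32 of all coding sequence.

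**Figure D4:**
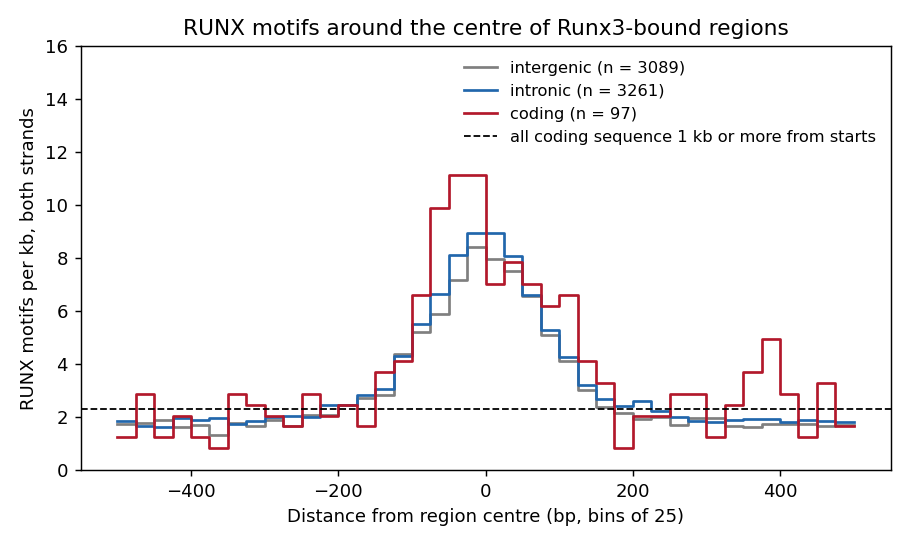
RUNX motifs per kb on both strands (vertical axis) by distance from the region centre in bins of 25 bp (horizontal axis), for coding-exon, intronic and intergenic Runx3-bound regions, with all coding sequence as a dashed line at 2.32. The intronic and intergenic lines peak at the centre. The coding-exon line is highest from -50 to 0 bp (11.1 per kb), and it is uneven because it rests on 97 regions.

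Within the coding sequence, the motif nearest the centre was TGTGGT in 36 of 66 members (54.5%, 42.6 to 66.0), whereas 36.0% of 59980 RUNX motifs in coding sequence were of this variant. The variant TGTGGC made up 19.7% of the nearest motifs (11.9 to 30.8) and 40.6% of all coding motifs. TGCGGC made up 15.2% and 13.97%, and TGCGGT 10.6% and 9.38%. These shares were compared without a test.

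The motif was read on the strand of the gene in 25 of 66 members (37.9%), against 51.4% of all coding motifs, a difference of -13.5 points (-24.2 to -1.40, two-sided Fisher's exact test p = 0.036) that did not pass after adjustment over 15 tests (adjusted p = 0.089). Its 5′ base on the strand of the gene was at codon position 1 in 23 members, at position 2 in 23 and at position 3 in 20, or 34.8%, 34.8% and 30.3%, while all coding motifs had 31.0%, 32.2% and 36.8%. Sense motifs at position 2 made up 7.58% of the members' motifs and 10.9% of all coding motifs, and antisense motifs at position 2 made up 27.3% and 21.3%, with both values for all coding motifs inside the members' intervals.

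**Figure D5:**
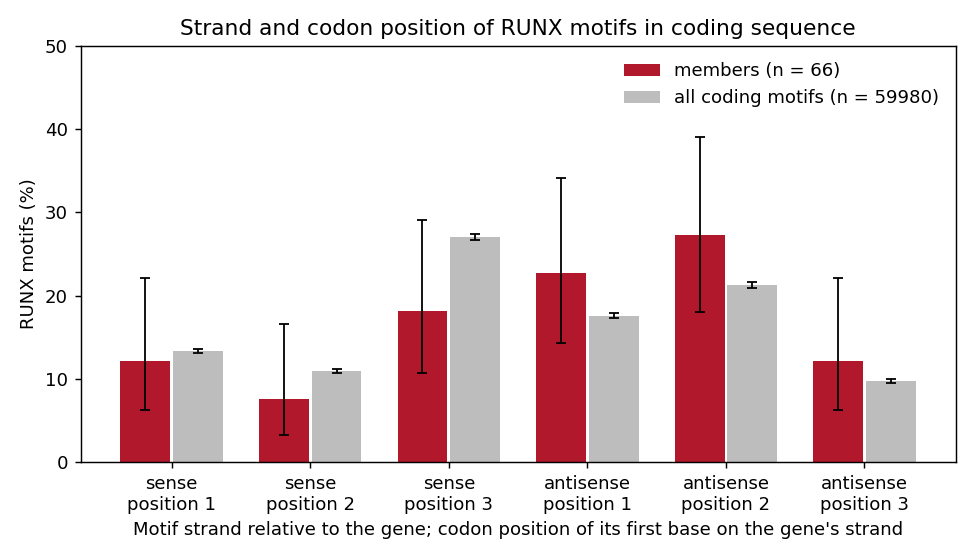
Share of RUNX motifs (vertical axis, percent) by strand relative to the gene and by codon position of the motif's 5′ base on the gene's strand (horizontal axis), for the 66 members with a coding motif nearest the centre and for all 59980 coding RUNX motifs. Lines are Wilson 95% intervals, which overlap the values of all coding motifs in all 6 classes.

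The 5 members in genes of the 7 T cell lists (receptor signalling, costimulation, cytokine receptors, cytokines, cytotoxic effectors, transcription factors, and adhesion) included those in Stat4, Tgfbr3, Junb and Nfkb2. They made up 5 of 258 genes with eligible coding sequence (1.94%), while 94 of 19272 protein-coding genes (0.488%) held a member. Gene length differs between lists and was not matched, so no more is read from these shares. The lists of costimulation, cytokine, cytotoxic effector and adhesion genes held 0, as did those of B cell, myeloid, NK cell, neuronal, liver and chromatin genes, and the nutrient list held 1, Rptor, which codes for the scaffold of mTORC1.

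The region in Stat4, the transcription factor downstream of the IL-12 receptor, was at chr1:52133229-52133805 in coding exon 7 of 23. It was 577 bp wide, 26.3% coding and covered by H3K4me1 throughout, and 4 further Runx3-bound regions lay in the gene. Its only RUNX motif was a TGTGGT in non-coding sequence, 46 bp from the centre.

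The region in Tgfbr3 was at chr5:107606643-107607175, in coding exon 3 of 16 and 14477 bp from the nearest TSS. It was 533 bp wide, covered by H3K4me1 throughout and held 3 RUNX motifs, all in the central 200 bp. The sequence printed above is from its centre.

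The regions in Nfkb2 and Junb were of another kind. That in Nfkb2, at chr19:46383641-46383865 in coding exon 13 of 22, was the narrowest of all members with 225 bp. That in Junb, at chr8:87501296-87501732, was 437 bp wide, lay in the only coding exon and was 1103 bp from the TSS. Each had 22 CpG and 65.5% GC in the central 200 bp, 1 RUNX motif of the variant TGCGGT and no H3K4me1. Nfkb2 also had a Runx3-bound region at its own TSS, while the nearest other region to that of Junb was 5178 bp away.

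Some members were also close to T cell genes other than the one they lay in. Within 50 kb of the TSS of a gene of the T cell lists there were 7 members, among them those in Junb and Nfkb2 by their own TSS. The others included the member in Pmel near Dgka, a kinase that limits diacylglycerol signalling, that in B3gnt3 near Jak3, the kinase of the common gamma chain, and that in Kdm3b near Egr1, an early response transcription factor. The share of other Runx3-bound regions this close to such genes was not set beside this count. It is therefore not read as a trait of the members. For 61 of the 97 the nearest TSS of a coding gene was that of the gene itself, 31 had another Runx3-bound region in the same gene and 10 had one at a TSS of the gene. These counts were not compared with those of intronic regions. Runx3-bound neighbours within 10 kb were found for 28.9% of members and 36.3% of intronic regions (-7.47 points, -15.7 to 2.35, exact adjusted p = 0.22).

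Several members, named after their values were seen, were in genes of lymphocyte function outside the lists. The member in Hcst, which codes for the DAP10 adaptor of the NKG2D receptor, was 463 bp wide, unmarked and within 50 kb of the TSS of Tyrobp. In Hcst the nearest motif was a TGCGGT on the sense strand, 32 bp from the centre. The member in Nt5e, the gene of the ectonucleotidase CD73, was unmarked, had no RUNX motif in the central 200 bp and lay in a gene with 2 other Runx3-bound regions. Icosl, which codes for the ligand of ICOS, held a member of 323 bp that was covered by H3K4me1. Btg2, which codes for an antiproliferative protein, held an unmarked member in its last coding exon with a TGTGGT 29 bp from the centre.

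The widest member was in Muc4, a membrane-bound mucin, at chr16:32750046-32751628 with 1583 bp. It lay in coding exon 2 of 27, which is 3197 bp long, and held 11 RUNX motifs, of which 1 was in the central 200 bp. The next were in Ysk4, a protein kinase gene (899 bp), Cmya5, the gene of a large muscle protein (872 bp), Rad52, a gene of homologous recombination (872 bp) and Pmel (826 bp). All 5 were marked, and H3K4me1 covered 94.8% of the region in Cmya5 and 100% of the others. Others of the 10 widest were in A830007P12Rik (704 bp), Phlda1 (674 bp), Wnt10a, the gene of a Wnt ligand (672 bp), and Gfra1, the gene of a GDNF co-receptor (641 bp). Of these only that in Gfra1 was marked. It lay in the last coding exon and had 51% GC in the central 200 bp. The others were also in last or single coding exons, with 58% to 67% GC.

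Regions with most RUNX motifs were of both kinds. Reep6, the gene of a membrane protein of the endoplasmic reticulum, had 11 motifs in 469 bp at chr10:79797844-79798312, of which 10 were in the central 200 bp, and no H3K4me1. Pmel had 9 motifs, of which 3 were central, and was covered by H3K4me1 throughout. Zscan10, a gene of a zinc finger factor of pluripotent cells, had 9 with 5 central, and H3K4me1 covered 65.4% of its region. Wnt10a had 8 with 3 central and was unmarked. Over all members the median number of motifs was 2 both with and without the mark.

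A pair of members was found in each of 3 genes. In Cmya5 the regions were 709 bp apart, centre to centre, in the same coding exon of 9310 bp, and both were marked. In Sema4f, a semaphorin gene, they were 463 bp apart in the last coding exon and both were marked. In Zfyve28, which codes for a protein with a FYVE domain, they lay 2186 bp apart in coding exons 10 and 12 of 13, and both were marked. Regions this close share their chromatin neighbourhood and are not independent of each other. The other 3 genes that the naming rule reached by alphabet had 1 member each, in 2310014H01Rik, A830007P12Rik and Adam1b, of which that in Adam1b was marked.

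Just inside the 1 kb limit were the members in Lclat1, an acyltransferase gene, at 1035 bp, and Capn3, the gene of a muscle calpain, at 1090 bp. Both were marked, with 425 and 574 bp in width. Just outside were the regions in Dnajc11, at 972 bp with no mark, and Ly6g5b, at 942 bp with the mark.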

How the data were processed

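Per the study's methods, the authors used ELAND to place reads on mm9, discarded reads without a unique position, pooled repeats and ran MACS once against pooled NIS. The deposited values are peak boundaries (chromosome, start and end, in bp), with no height or score, in 2 lists (9135 Runx3-bound and 18992 H3K4me1-marked regions). Depth per library is not held in these lists. The study's methods give read numbers per antibody, which for Runx3 and NIS were lower in these cells than in the other cell states it mapped. The part of depth in the calls was not tested. The protocol speaks of 2 repeats for both antibodies while the labels hold 1 H3K4me1 library.

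Positions were counted from 1 and set against NCBIM37 and GENCODE vM1 (86803 transcript starts). Regions were classed by their centre. Shares were compared by two-sided Fisher's exact tests, with Newcombe intervals of differences, Wilson intervals of shares and Benjamini-Hochberg adjustment over 15 tests at 0.05. Coding windows were laid every 100 bp and other windows every 5000 bp. Functions were tested on simulated data. Python 3.11.15, NumPy 2.4.6, SciPy 1.17.1, pysam 0.24.0, numba 0.67.0 and matplotlib 3.10.9 were used.

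Named members were the 10 widest, the 6 genes with most members (ties by name), those in T cell lists, the 5 with most RUNX motifs and the 2 on either side of the 1 kb limit. Members and lists were chosen with earlier results of these data known, and the split by CpG was added after seeing the data. Alternatives changed the overlap, window, distance, width, coding share, transcripts, chromosomes and uniqueness. Results for some of the members reached by these rules are not reported here.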

Additional observations from a re-analysis of the deposited data

How the results depend on the processing

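Of 50 alternatives for 16 results, 35 kept direction and side of the threshold (adjusted p, with the other tests of the family kept), 11 lost the call, 2 reversed the sign of a difference that had not passed and 2 moved the number of members. Differences are coding-exon minus the other class, in percentage points. The H3K4me1 difference from intronic regions lost its call 5 kb or more from every start (-13.4), among regions of 500 bp or more (-8.52) and, added after seeing the data, with under 10 CpG in the central 200 bp (-8.82). That from intergenic regions lost it by the centre alone (-9.35), with 50% of the region covered (-8.50), 5 kb or more from starts (-6.82), from 500 bp (-4.07) and with under 10 CpG (-5.08). The difference of last from other exons lost it by the centre alone (-14.1) and with under 10 CpG (-23.1). TGCGGT lost it in the central 100 bp (4.79). The sign reversed for RUNX against intronic regions in the central 100 bp (-1.56) and for RUNX pairs in the whole region (-1.41). Members numbered 356 where any base of the region was coding and 53 where 50% was. By the 50% rule the H3K4me1 difference was wider, at -27.8 from intronic and -22.9 from intergenic regions. Both calls were kept (two-sided Fisher's exact test, adjusted p = 0.00025 and 0.0045). The cause of each shift was not tested.

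No paired analysis was possible because peaks were called once on joined repeats, so the replicate numbers of the libraries have no values of their own, and no library was left out. The lists hold no depth and no peak heights, so binding strength was not compared.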
